A study of Mus musculus with 8 samples.

Results

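Crystallins are the abundant soluble proteins of the lens, and 10 of their genes were followed here through naive mouse corneas: Cryaa and Cryab of the alpha family, Cryba1, Cryba2 and Cryba4 of the acidic beta family, Crybb1, Crybb2 and Crybb3 of the basic beta family, and Crygs and Crygn of the gamma family. The genes were chosen by name, and all 10 were found among the 31314 genes with a value other than 0 in at least 1 cornea. The samples were 4 corneas of BALB/c mice, which the study calls BALB/cN, and 4 corneas of C57BL/6N mice. Both groups were naive, that is, no corneal injury or treatment was applied, and BALB/c mice are albino while C57BL/6N mice are black. The study used male mice for sequencing and set the strains against each other as the parents of a cross in which loci for corneal lymphatic vessels had been mapped, 1 of them on chromosome 17. The sources used here describe 4 corneas per strain, but give neither the age of these mice nor whether the corneas came from separate animals, so the spread between replicates may be partly technical.

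Alpha crystallins are small heat shock proteins that keep other proteins soluble, while beta and gamma crystallins are structural proteins that fill the lens fibre cells and give the lens its refractive power. Most of these genes are switched on in the lens by transcription factors of the Maf, Pax6 and Sox families. The cornea is a separate tissue, made of an epithelium, a collagen-rich stroma and an inner endothelium, and it lies in front of the lens, iris and ciliary body. Cryab differs from the other crystallins in that it is also used in heart, muscle and many other tissues as a stress protein.

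The deposited values are on the rlog scale, a log2 scale on which the values of a low gene are drawn towards its mean. From these values read counts were recovered, as whole numbers except in the highest genes such as Pax6, where they are approximate, with library totals of 29700000 to 41200000 reads. Counts are given below because the rlog scale hides a count of 0. With 0 reads of Cryba1, for example, BALB/c replicate 2 had an rlog value of 3.91, while BALB/c replicate 1 had 7.39 with 562 reads. A count of 0 allowed a level of up to 0.0729 to 0.101 RPM, depending on the library, where RPM is the read count scaled to a library of 1000000 reads. Reads are not independent molecules, as no molecular identifiers were used, so all counting limits and intervals cover counting error only. The corneal labels were borne out by the corneal epithelium markers, which include the corneal keratin Krt12 and together took 51500 to 62000 RPM in every cornea.

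BALB/c replicates 1 and 4 stood apart from the other 6 corneas in lens transcripts before any strain comparison was made. They were the highest pair of corneas for 7 of the 10 crystallins, whereas 8.94% of all 25402 tested genes had this pair on top. Without Cryab and Crygn, the other 8 crystallins summed to 234 RPM in BALB/c replicate 1 and to 81.7 in BALB/c replicate 4. The same sum was 14.1 in C57BL/6N replicate 3 and lay between 3.33 and 5.71 in the remaining 5 corneas. The strain differences below are therefore given with and without BALB/c replicates 1 and 4, for single genes and for the medians of gene lists.

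The upstream sequences are shown for 4 of the genes, which moved together across the corneas. Cryba1 lies on chromosome 11, while Cryba4, Crybb1 and Crybb2 lie on chromosome 5, Crybb1 on the plus strand and the others on the minus strand. The sequences end where the annotated transcript begins. The capitals mark 3 short motifs searched for on both strands, TGCTGA (a part of the Maf recognition element), AACAAT (a Sox core) and TATAAA (the TATA box).
Cryba1 promoter, chr11:77725294-77725543, minus strand: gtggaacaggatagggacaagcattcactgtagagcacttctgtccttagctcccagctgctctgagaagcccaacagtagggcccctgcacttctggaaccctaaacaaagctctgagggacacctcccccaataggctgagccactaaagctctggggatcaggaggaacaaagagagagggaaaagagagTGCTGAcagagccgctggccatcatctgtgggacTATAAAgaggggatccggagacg
Cryba4 promoter, chr5:112252519-112252768, minus strand: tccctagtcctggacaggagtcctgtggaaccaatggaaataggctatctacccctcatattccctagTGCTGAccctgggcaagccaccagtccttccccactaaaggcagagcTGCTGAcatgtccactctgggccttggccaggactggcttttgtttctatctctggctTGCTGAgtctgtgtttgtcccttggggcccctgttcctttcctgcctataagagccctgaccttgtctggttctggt
Crybb1 promoter, chr5:112255570-112255814, plus strand: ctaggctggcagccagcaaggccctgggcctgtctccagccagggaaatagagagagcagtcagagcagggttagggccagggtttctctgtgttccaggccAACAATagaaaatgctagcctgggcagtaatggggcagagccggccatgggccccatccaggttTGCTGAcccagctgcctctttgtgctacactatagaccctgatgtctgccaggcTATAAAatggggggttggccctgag
Crybb2 promoter, chr5:113070118-113070367, minus strand: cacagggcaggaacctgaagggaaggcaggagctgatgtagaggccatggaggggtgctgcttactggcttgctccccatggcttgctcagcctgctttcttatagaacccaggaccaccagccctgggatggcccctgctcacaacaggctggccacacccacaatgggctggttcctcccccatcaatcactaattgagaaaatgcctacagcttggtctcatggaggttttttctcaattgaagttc

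The sequences are from RefSeq on GRCm38.p6, and 9 of the 10 genes had an entry, with Cryab as the exception. In the 250 bases before the RefSeq start, TGCTGA or its reverse complement TCAGCA was found in 8 of the 9 genes, all but Crybb2. The same motif was found in 15.8% of the 27025 promoters of the table. Cryba4 held it 3 times, beginning 182, 135 and 77 bases before the start. Crygn, whose level did not follow the other genes, held it once as well, 228 bases before the start. TATAAA was found in Cryba1, Crybb1 and Crygs, or 3 of the 9 genes, against 13.0% of all promoters. AACAAT was found in Crybb1 and Crygs, or 2 of the 9 genes, against 9.65% of all promoters. The matches in Cryaa (TGCTGA) and Crygs (AACAAT and TATAAA) lie within an exon of the GENCODE annotation, and those sequences are not shown. A match describes these letters only, and factor binding was not measured.

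**Figure D1:**
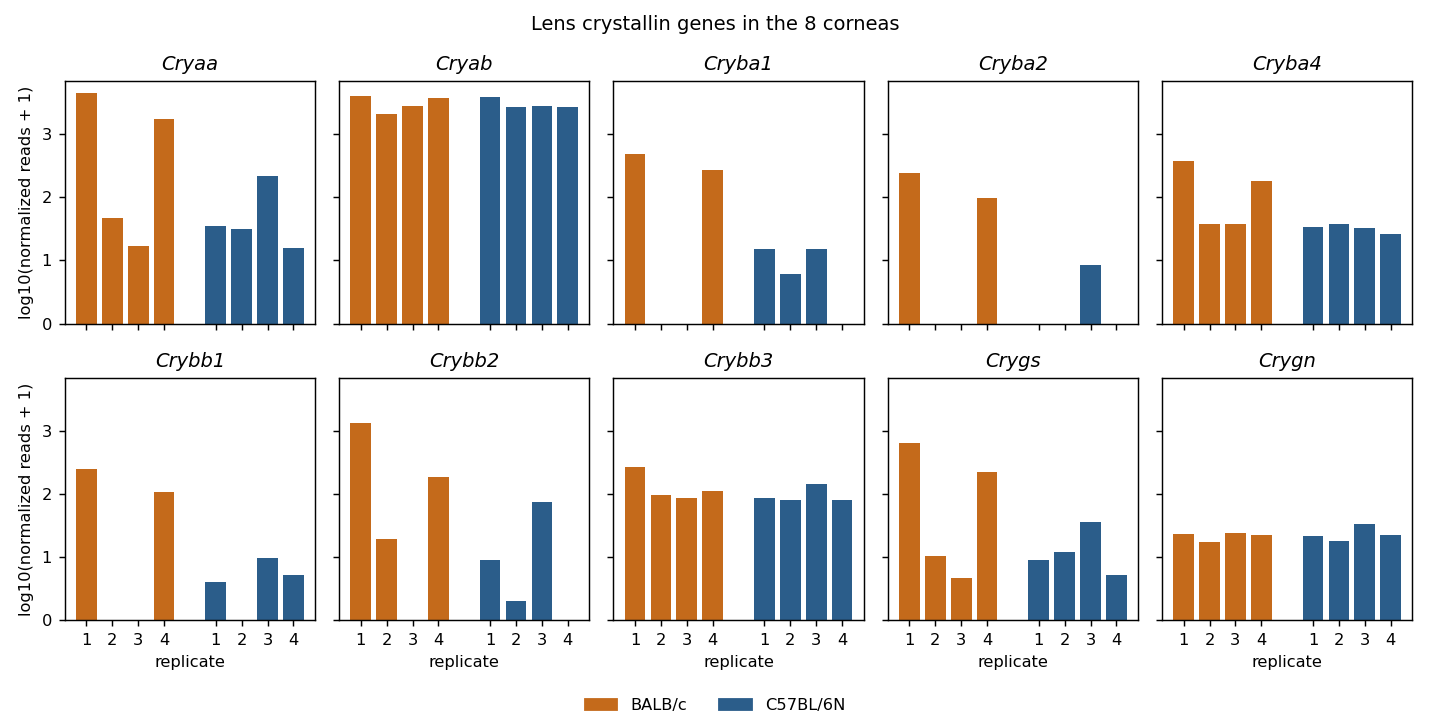
Normalized reads of the 10 crystallins in each cornea, as log10(normalized reads + 1), with BALB/c replicates 1 to 4 in orange and C57BL/6N replicates 1 to 4 in blue. Cryaa reached 4511 normalized reads in BALB/c replicate 1 and 14.8 in C57BL/6N replicate 4, while Cryab and Crygn were nearly level.

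Among the alpha crystallins, Cryaa varied most between corneas and Cryab little. Cryaa (ENSMUSG00000024041, chr17:31677807-31681733, plus strand) encodes the lens form of alpha crystallin and lies on the chromosome of the locus the study examined. Its reads numbered 5263, 53, 17 and 1785 in BALB/c replicates 1 to 4 and 33, 30, 170 and 14 in C57BL/6N replicates 1 to 4. The strains overlapped, since BALB/c replicate 3 was near the lowest C57BL/6N cornea. After division by the size factors, Cryaa averaged 1580 ± 2110 reads in BALB/c and 73.3 ± 94.7 in C57BL/6N (SD, n = 4 each), so that the SD was larger than the mean in both strains. In RPKM, that is, RPM per kilobase of exon, Cryaa went from 0.186 in C57BL/6N replicate 4 to 62.9 in BALB/c replicate 1.

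Cryab (ENSMUSG00000032060, chr9:50751325-50756636, plus strand) was read in every cornea, with 4711, 2337, 2963 and 3814 reads in BALB/c and 3798, 2676, 2214 and 2499 in C57BL/6N. It was the highest crystallin per kilobase in every cornea, at 38.4 to 79.1 RPKM. In BALB/c replicate 1 Cryaa came close to it (62.9 against 79.1), whereas in C57BL/6N replicate 4 the values were 0.186 and 46.5. The order of the corneas differed from that of Cryaa: C57BL/6N replicate 1 (71.7) stood second, between BALB/c replicates 1 (79.1) and 4 (70.3), and the other 5 corneas lay between 38.4 and 51.7. On the rlog scale its range over the 8 corneas was 0.73, against 5.57 for Cryaa. The gene shares exonic bases with Hspb2, a small heat shock gene on the opposite strand, for which 7 to 51 reads were counted. The libraries kept strand, but whether the counting used it is not given in the sources used here.

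The acidic beta crystallins were close to absent outside BALB/c replicates 1 and 4, apart from a low base of Cryba4. Cryba1 (ENSMUSG00000000724, chr11:77718615-77725283, minus strand) had 562, 0, 0 and 281 reads in BALB/c and 14, 5, 11 and 0 in C57BL/6N. Cryba2 (ENSMUSG00000006546, chr1:74889934-74893143, minus strand) had 278, 0, 0 and 100 reads in BALB/c and 0, 0, 6 and 0 in C57BL/6N. For both genes the remaining pair of BALB/c corneas held no read, so within this strain the counts were either at 100 or more or at 0. Cryba4 (ENSMUSG00000066975, chr5:112246493-112252518, minus strand) had 440, 42, 39 and 182 reads in BALB/c and 32, 37, 25 and 24 in C57BL/6N. Cryba4 was thus present in every cornea, and the 6 lower corneas held 0.789 to 1.22 RPKM.

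Crybb1, which starts close to Cryba4 on the other strand, followed the same corneas. The genes are 3296 bases apart, with their starts facing each other, and their upstream sequences are both shown above. Crybb1 (ENSMUSG00000029343, chr5:112255815-112269585, plus strand) had 287, 0, 0 and 111 reads in BALB/c and 3, 0, 7 and 4 in C57BL/6N. Despite the short distance, Crybb1 had no such base level as Cryba4: at 0 to 0.239 RPKM in the 6 lower corneas it stayed below the lowest value of Cryba4, 0.789.

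Crybb2 and Crybb3 are also neighbours, 5721 bases apart on one strand of chromosome 5, and they differed in the same way. Crybb2 (ENSMUSG00000042240, chr5:113058258-113070117) had 1538, 21, 0 and 194 reads in BALB/c and 8, 1, 58 and 0 in C57BL/6N, so that C57BL/6N replicate 3 was the next highest cornea. Crybb3 (ENSMUSG00000029352, chr5:113075839-113081584) had 310, 108, 91 and 116 reads in BALB/c and 85, 79, 112 and 75 in C57BL/6N. BALB/c replicate 1 alone stood clearly above the base level of Crybb3, at 3.30 RPKM against 0.885 to 1.62 in the other 7 corneas. BALB/c replicate 4 (1.35) lay below C57BL/6N replicate 3 (1.62) for this gene.

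Of the gamma family, Crygs followed the lens pattern and Crygn did not. Crygs (ENSMUSG00000033501, chr16:22805203-22811577, minus strand), a gamma crystallin of the lens cortex, had 744, 11, 4 and 229 reads in BALB/c and 8, 11, 28 and 4 in C57BL/6N. Crygn (ENSMUSG00000038135, chr5:24751003-24758008, minus strand), a divergent member of the family, had 26, 19, 25 and 22 reads in BALB/c and 20, 17, 26 and 20 in C57BL/6N. Crygn was thus the flattest gene of the 10, with an rlog range of 0.22, and its level of 0.573 to 1.09 RPKM was highest in C57BL/6N replicate 3. The interval of its ratio between BALB/c replicates 1 and 4 (1.05, 95% exact interval 0.570 to 1.94) is wide, as few reads were counted.

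The members thus fell into groups by the lowest cornea rather than by family. Cryaa and Crygs were read in every cornea but at no more than 0.211 and 0.126 RPKM in the lowest pair. Cryba1, Cryba2, Crybb1 and Crybb2 had 0 reads in 3, 5, 3 and 2 of the 8 corneas. Cryab, Cryba4, Crybb3 and Crygn had a base level in every cornea. The median rlog range over the 8 corneas was 2.17 for the 10 genes, compared with 0.36 for all tested genes. A range of at least 3 was found for 4 of the 10 genes (Cryaa, Cryba1, Crybb2 and Crygs) and for 0.653% of all tested genes.

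The study compared the strains to find genes whose expression differs between the parents of the cross. None of the 10 crystallins passed the threshold of an adjusted p of 0.01 in limma's moderated test on rlog values, a fit across all 25402 genes with a mean rlog of at least 0, in which 5.74% of all genes passed. The count at an unadjusted p under 0.05 was also 0 of 10, against 23.7% of all tested genes. Limma voom on the recovered reads called 0 of the 10 as well, with a lowest adjusted p of 0.353 and 5.68% of all genes called. The differences were positive, that is, higher in BALB/c, for 9 of the 10 genes, and their median was 0.83 on the log2 rlog scale, against 0.01 for all tested genes. In no crystallin were the 4 corneas of one strain all above the 4 of the other, whereas 18.3% of all tested genes separated the strains.

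Cryaa had the largest difference, 1.95 ± 1.16 (log2 rlog scale, SE, adjusted p = 0.351 from limma), and Crybb2 followed with 1.62 ± 1.0 (adjusted p = 0.373 from limma). Cryba1 and Crygs differed by 1.22 ± 0.75 and 1.21 ± 0.71. The smallest adjusted p, 0.217 from limma, belonged to Cryba4 with a difference of 0.82 ± 0.37, and its exact two-sided permutation test over the 70 splits of the corneas gave p = 0.0857. The smallest p that 4 against 4 corneas can give in this test is 0.0286. Crybb1 (0.83 ± 0.48) and Cryba2 (0.81 ± 0.43) were of similar size to Cryba4. The differences of Crybb3 (0.22 ± 0.20), Cryab (0.03 ± 0.16) and Crygn (-0.02 ± 0.08) were about as large as their errors or smaller.

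Without BALB/c replicates 1 and 4, an alternative chosen after the data were seen, 1 of the 10 differences was positive, that of Cryba4 at 0.07 ± 0.10. Cryaa then differed by -0.39 ± 0.56, Crybb2 by -0.21 ± 0.51 and Cryba1 by -0.37 ± 0.17, the last with an adjusted p of 0.354 from limma that was the lowest of the 10. No crystallin passed the threshold, and 1.80% of all genes did. With BALB/c replicate 1 alone left out, Cryaa differed by 0.98, and 8 of the 10 differences were positive. The positive differences of the 7 genes Cryaa, Cryba1, Cryba2, Crybb1, Crybb2, Crybb3 and Crygs turned negative without these 2 corneas, as did that of Cryab. These corneas were set aside for their high crystallin levels, so a fall in the differences without them was fixed in advance.

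**Figure D2:**
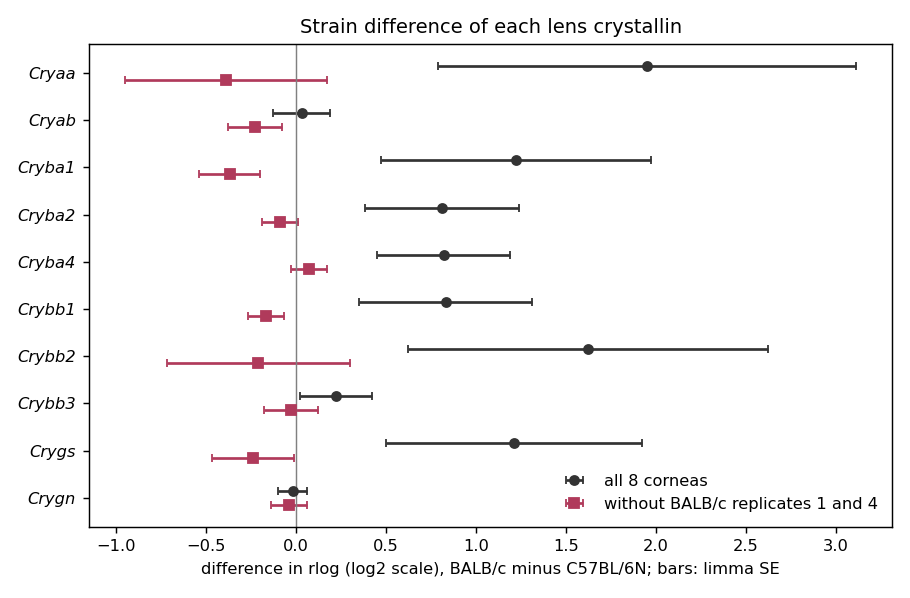
Difference between strains for each crystallin on the log2 rlog scale, BALB/c minus C57BL/6N, with the SE from limma as bars. Black points use all 8 corneas, and red squares leave out BALB/c replicates 1 and 4, without which Cryaa moved from 1.95 to -0.39.

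The 6 gamma crystallins Cryga to Crygf on chromosome 1, which all but Crygf lie in a row, are fibre cell proteins of the lens core. Of these, Crygb, Crygc and Crygd followed the same corneas. Crygb had 892, 5, 0 and 146 reads in BALB/c and 1, 3, 63 and 0 in C57BL/6N. Crygc had 661, 5, 0 and 115 reads in BALB/c and 0, 1, 22 and 0 in C57BL/6N. In both genes C57BL/6N replicate 3 again came next after BALB/c replicates 1 and 4, as in Cryaa and Crybb2. Crygd had 730, 11, 10 and 169 reads in BALB/c and 6, 7, 20 and 1 in C57BL/6N. Cryga, Cryge and Crygf stayed at or below 56 reads in every cornea. These genes are similar in sequence, and reads may have been split or lost among them. None of the 6 was called, 6 of 6 differences were positive and their median was 0.59. Without BALB/c replicates 1 and 4 the median was -0.04, with 2 of 6 differences positive.

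Other genes of lens fibres were high in BALB/c replicates 1 and 4 too, and 10 of 12 had these corneas as their highest pair. Mip, the water channel of the fibre membrane, had 252, 6, 0 and 111 reads in BALB/c and 10, 4, 13 and 0 in C57BL/6N. Bfsp2, a filament protein of lens fibres, had 259, 25, 14 and 282 reads in BALB/c and 35, 22, 4 and 5 in C57BL/6N, with BALB/c replicate 4 above replicate 1. Its partner Bfsp1 was read at 183 to 575 reads in every cornea and was higher in 4 of 4 BALB/c corneas than in any C57BL/6N cornea, by 0.52 ± 0.11 (adjusted p = 0.0171 from limma), which misses the threshold, and by 0.40 without BALB/c replicates 1 and 4 (adjusted p = 0.201 from limma). Of the 11 lens fibre genes tested, 0 were called and 11 had a positive difference (median 0.38), against 5 of 11 without BALB/c replicates 1 and 4. Of the 9 lens regulators, 8 were tested and 0 called (median 0.05, or -0.15 without BALB/c replicates 1 and 4), and 3 had BALB/c replicates 1 and 4 as their highest pair. Prox1, a factor of fibre differentiation, had 93, 15, 11 and 19 reads in BALB/c and 23, 66, 11 and 10 in C57BL/6N. Pax6, also used in the corneal epithelium, had 48765 to 66102 reads, while Foxe3 and Pitx3, which mark lens epithelium and fibres, had 31 and 6 reads in BALB/c replicate 1 and at most 2 in any other cornea. Sox2 and Maf were highest in C57BL/6N replicate 2, with 30 and 1894 reads. Sox1 had 18 and 7 reads in BALB/c replicates 1 and 4 and 0 in every other cornea, and Hsf4 (118 reads) and Six3 were highest in BALB/c replicate 4.

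Of 7 genes that share the crystallin name but are not lens crystallins, 2 had BALB/c replicates 1 and 4 as their highest pair. Crybg2 was lower in BALB/c by -0.50 ± 0.08 (adjusted p = 0.00278 from limma) and Crybg3 by -0.36 ± 0.07 (adjusted p = 0.00928 from limma). Crybg2 had 10458 to 12545 reads in BALB/c and 14069 to 17114 in C57BL/6N. Both genes separated the strains in 8 of 8 corneas once the libraries were scaled, but Crybg3 lost its call in every fit without 1 cornea (adjusted p of 0.0129 to 0.0339 from limma), and Crybg2 lost it without BALB/c replicate 4 or C57BL/6N replicates 3 or 4 (up to 0.0112). After centring each cornea on its median the adjusted p values from limma were 0.0163 for Crybg2 and 0.0587 for Crybg3. Without BALB/c replicates 1 and 4 neither was called, with -0.42 for Crybg2 (adjusted p = 0.052 from limma) and -0.27 for Crybg3 (adjusted p = 0.124 from limma). The list as a whole had a median difference of 0.07 with 4 of 7 differences positive, and of 0.09 without BALB/c replicates 1 and 4. Of the 6 other small heat shock genes, the family to which Cryaa and Cryab belong, 5 were tested and 0 called (median 0.20, or 0.00 without BALB/c replicates 1 and 4), and 5 of 6 had BALB/c replicates 1 and 4 as their highest pair.

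BALB/c replicates 1 and 4 differed from each other in the sum of crystallin reads and in its make-up. The 14 lens crystallins, that is, 8 of the 10 followed here (without Cryab and Crygn) plus the 6 gamma crystallins, made up 0.0292% of the reads in replicate 1 and 0.00934% in replicate 4. The ratio of normalized reads between them, replicate 1 over replicate 4, was 1.77 for Cryba1 (95% exact interval 1.53 to 2.05), 2.61 for Cryaa (2.47 to 2.75) and 7.01 for Crybb2 (6.04 to 8.19). Crygb (5.40) and Crygc (5.08) lay near Crybb2, and Cryba4 (2.14), Crybb1 (2.29), Crybb3 (2.36), Cryba2 (2.46) and Crygs (2.87) near Cryaa. Cryba4 and Crybb3 had a base level in every cornea, at 0.789 and 0.885 RPKM or more. Their ratios include the reads of that base, which draws them towards 1. The crystallins were therefore not scaled by 1 factor between these corneas, as the intervals of Cryba1, Cryaa and Crybb2 do not overlap. Cryaa took 44.7% (43.8 to 45.6, exact 95% interval) of the 11782 reads of these 14 genes in replicate 1 and 52.0% (50.4 to 53.7) of the 3430 reads in replicate 4, and Crybb2 took 13.1% (12.5 to 13.7) and 5.66% (4.91 to 6.48). In C57BL/6N replicate 3 the 14 genes had 528 reads, with Cryaa at 32.2% (28.2 to 36.4) and Crybb2 at 11% (8.45 to 14). These intervals compare single libraries, and no replicate stands behind them.

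**Figure D3:**
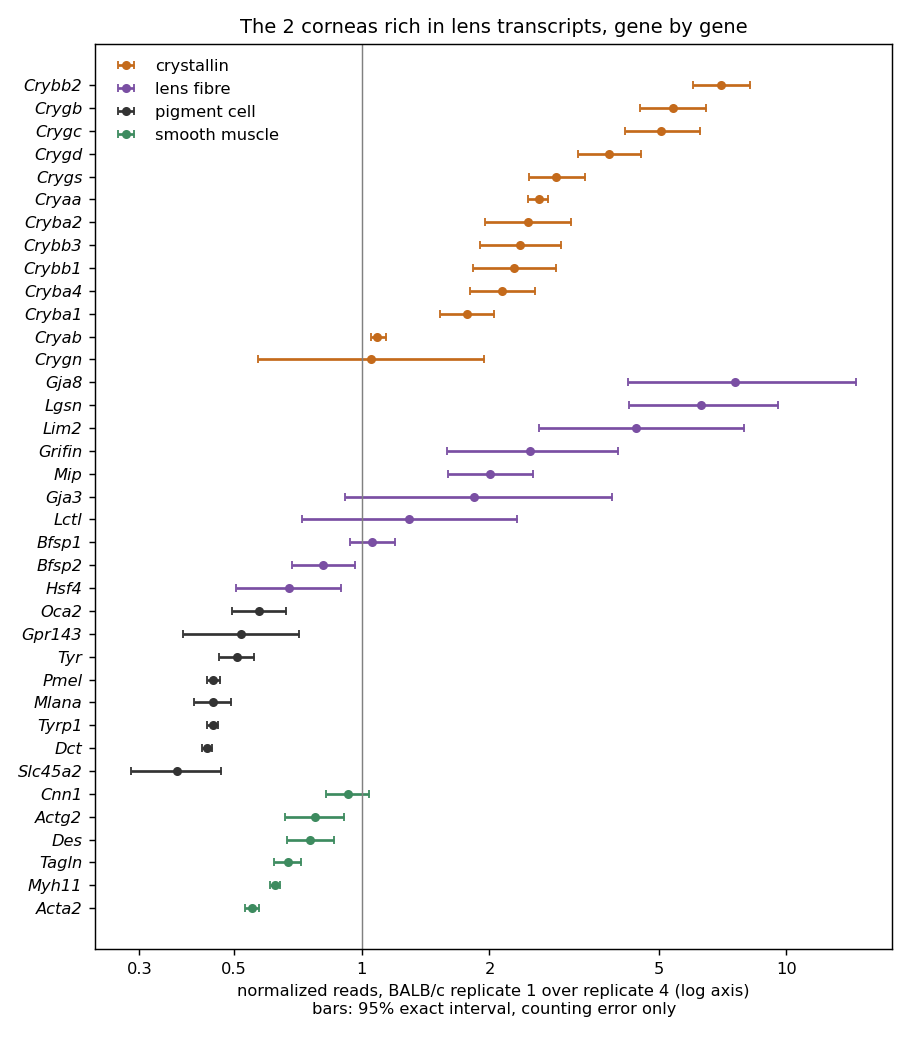
Ratio of normalized reads in BALB/c replicate 1 over BALB/c replicate 4, on a log axis with 95% exact intervals for counting error, for genes with at least 10 reads in both corneas. All 13 crystallins lay above 1, 12 of them with their whole interval and Crybb2 highest at 7.01, while the 8 pigment cell genes lay between 0.368 and 0.574.

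Transcripts of other tissues moved with the crystallins. The 8 pigment cell genes, such as Tyrp1, Dct and Pmel of melanin synthesis, summed to 564 and 1230 RPM in BALB/c replicates 1 and 4, to 5.75 and 10.1 in the other BALB/c corneas and to 18.6 to 105 in C57BL/6N. The 6 smooth muscle genes, such as Acta2 and Myh11, summed to 392 and 616 in BALB/c replicates 1 and 4, to 6.60 and 10.5 in the other BALB/c corneas and to 9.69 to 77.1 in C57BL/6N. Both lists were highest in BALB/c replicate 4, where the 14 crystallins were lower than in replicate 1. All 8 pigment cell genes and all 6 smooth muscle genes were higher in replicate 4, Cnn1 by less than the counting error. All 10 crystallins were higher in replicate 1, Crygn by less than the counting error. Lens fibre genes went both ways: of 10 with at least 10 reads in both corneas, 5 were higher in replicate 1 and 2 in replicate 4 beyond the counting error. Neither the pigment cell list nor the smooth muscle list had a called gene in the strain comparison (0 of 8, median 0.74, and 0 of 6, median 1.03). Without BALB/c replicates 1 and 4 their medians were -1.17 and -0.60, again with 0 called. In C57BL/6N the order also differed between tissues, since replicate 1 had more pigment transcripts (105) than replicate 3 (78.1) but fewer reads of the 14 crystallins (5.30 against 17.8 RPM). In bulk RNA, more cells of a type and more RNA per cell cannot be told apart. The part of carried-over tissue in the crystallin values was not tested.

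Genes of the pigment epithelium, of ciliary body and vitreous and, apart from Tnni2, of skeletal muscle were low. Genes of the pigment epithelium summed to 2.20 RPM at most, in C57BL/6N replicate 1. The list had 45, 0, 5 and 77 reads in BALB/c replicates 1 to 4, so replicates 1 and 4 were again the higher ones. In C57BL/6N it had 79, 49, 41 and 52 reads, most of them from Best1, a chloride channel. Rlbp1, with 35, 0, 3 and 66 reads in BALB/c, was the 1 gene of the 6 with BALB/c replicates 1 and 4 as its highest pair. Rgr had 0 reads in all 8 corneas. The list held 1 called gene among 4 tested. This was Best1, with 0 reads in 4 of 4 BALB/c corneas and 36 to 66 in C57BL/6N (adjusted p = 0.000102 from limma). Its rlog difference of -0.86 ± 0.08 depends on the shrinkage and is no bound on the fold, and the gene stayed called without BALB/c replicates 1 and 4 (adjusted p = 0.00627 from limma). The 3 genes of ciliary body and vitreous (1.19 to 5.47 RPM) and the 8 skeletal muscle genes (26.0 to 44.0) held 0 called genes each, with medians of 0.04 and -0.03, or 0.01 and -0.01 without BALB/c replicates 1 and 4. Most of the skeletal muscle sum was Tnni2, with a mean of 1200 normalized reads in BALB/c and 907 in C57BL/6N. No other gene of that list had a strain mean above 39.2, that of Tnnt3 in BALB/c.

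Lists of the cornea itself differed between corneas in the stroma more than in the epithelium. The 8 stromal keratocyte genes summed to 8570 to 12100 RPM in 5 corneas but to 2690 in BALB/c replicate 2, 1290 in C57BL/6N replicate 3 and 1350 in C57BL/6N replicate 4. Cryab, the crystallin with a high level in all corneas, was lowest per kilobase in BALB/c replicate 2 (38.4) and next in C57BL/6N replicate 4 (46.5), while the stroma-poor C57BL/6N replicate 3 (50.4) lay above C57BL/6N replicate 2 (48.9), which is rich in stroma. The part of stroma in the level of Cryab was not tested. Of the 8 stromal, 6 epithelial and 3 endothelial genes tested, 0 were called (medians 0.72, -0.03 and 0.12, or 0.24, 0.05 and -0.10 without BALB/c replicates 1 and 4), and the endothelial genes summed to 251 to 874 RPM.

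**Figure D4:**
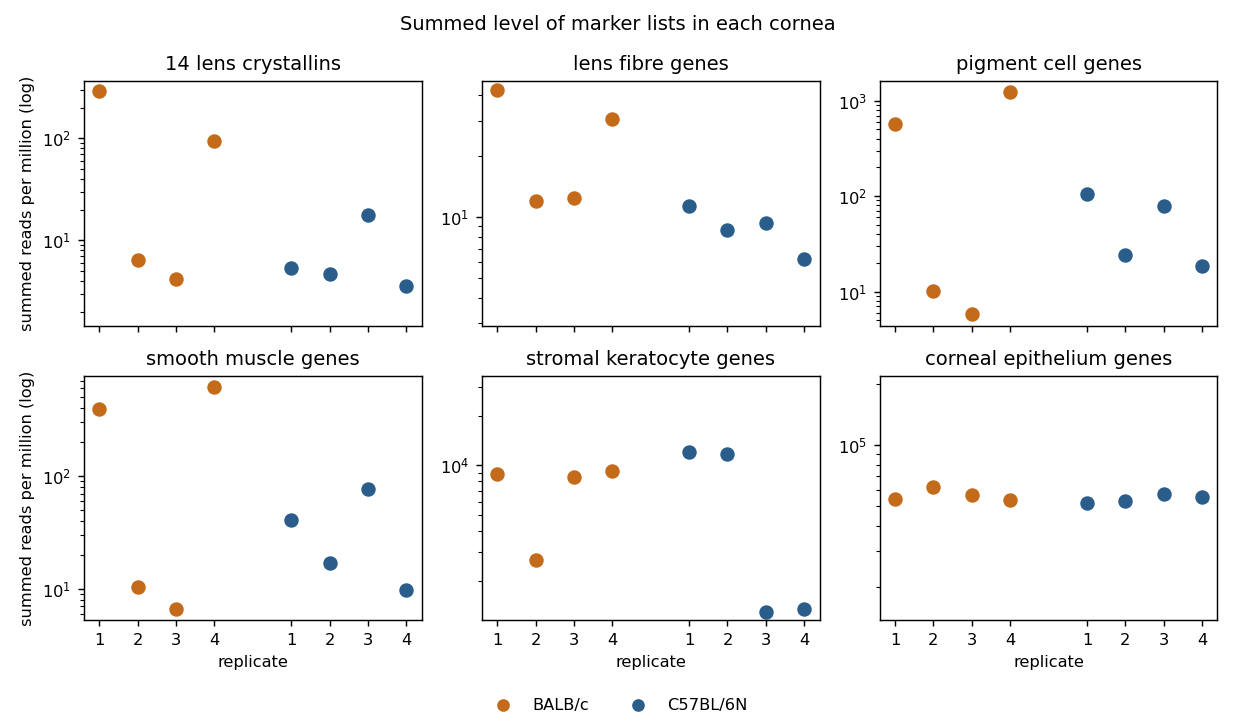
Summed RPM of 6 gene lists in each cornea on log axes, with BALB/c in orange and C57BL/6N in blue. BALB/c replicates 1 and 4 held 292 and 93.4 RPM of the 14 lens crystallins and 564 and 1230 of the pigment cell genes, while the corneal epithelium genes stayed between 51500 and 62000.

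Likeness to the mean profile of the 10 crystallins was measured as Pearson's r over the 8 corneas, for 2280 other genes with a range of at least 1 on the rlog scale. The members themselves correlated with the mean of the other 9 at 0.97 or more, except Crybb3 (0.87), Cryab (0.67) and Crygn (0.18). The 10 other genes most like the profile had r between 0.953 and 0.996 and Spearman's coefficient between 0.714 and 0.976. The first 4 were Mip (0.996), Crygc (0.995), Crygd (0.994) and Crygb (0.972), all of the lens lists. They were followed by Rasl12, Rab3c, D930019O06Rik, Actg2, Htr1b and Myocd. Actg2, a smooth muscle actin, had 296, 0, 0 and 337 reads in BALB/c and 8, 0, 32 and 0 in C57BL/6N, and Myocd, a coactivator of smooth muscle genes, had 280, 0, 0 and 273 and 7, 0, 47 and 2. Since 2 corneas set most of this profile, these correlations are descriptions over 8 libraries. Those corneas, BALB/c replicates 1 and 4, were both high in lens, pigment and smooth muscle transcripts.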

How the data were processed

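Per the labels, total RNA of 8 naive corneas was sequenced, 4 of each strain. The authors trimmed the reads, removed rRNA and tRNA, aligned them with TopHat2 (2.1.1) to strain-specific versions of GRCm38, counted them over the union of exons with HTSeq (0.7.1), and deposited rlog values from DESeq2 (1.30), a log2 scale relative to size factors and shrunken for low counts. Of the columns, 0 belonged to other samples. Of 54532 gene IDs, 54409 had a symbol.

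Read counts were recovered from the rlog values alone by fitting size factors and shrinkage constants until counts came out whole. A closed formula gave values within 0.1 of whole numbers in 88.3%, 95.2%, 91.5% and 53.3% of genes with normalized means of 3 to 10, 10 to 100, 100 to 1000 and 1000 to 5000, and an emulation of the rlog fit was then used. Whole counts put through it gave back all 8 rlog values within 0.001 for 99.0%, 97.1%, 95.9% and 97.1% of genes with normalized means of 1 to 10, 10 to 100, 100 to 1000 and 1000 to 5000. For the 110 listed genes the largest deviation was 5.7e-05. In the highest genes 1 read changes the rlog value by less than its rounding, so their counts are approximate. Library totals were 29700000 to 41200000 reads.

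The strain comparison used limma (3.58.1, R 4.3.3) on rlog values with a variance trend, for the 25402 genes with a mean rlog of at least 0, with Benjamini-Hochberg adjustment and the study's threshold of 0.01. The fit was tested on simulated data with known answers. Single genes were tested by exact two-sided permutation over all 70 splits of the corneas. Named were all crystallins, genes of the marker lists and the 10 genes most like the crystallin profile. The crystallins and lists were chosen with earlier results of these data known. Coordinates are from GENCODE vM21 on GRCm38. Motifs were searched in the 250 bases before each RefSeq start, which for some genes reach into exons of the GENCODE annotation. Alternatives were other variance settings, filters, scalings, a replicate block, another threshold, and fits without each cornea. The recovered counts, voom and the fit without BALB/c replicates 1 and 4 were added after seeing the data. One of the marker lists is not reported here.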

Additional observations from a re-analysis of the deposited data

Results flagged for a closer look

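Within each strain, the highest and the lowest of the 4 rlog values of each crystallin were checked for a gap to the next value that took up more of the range than Dixon's 95% limit for 4 samples allows. Of the 20 sets of 4 values, 3 went past it, all in C57BL/6N. Chance alone flags about 1 in 20 where values are normal and sets are independent. Neither holds for all sets here, as some hold counts at or near 0 and all share the same corneas. Cryab was set apart in C57BL/6N replicate 1, which was the highest of its 4 (gap over range 0.853, 3798 reads). Cryba2 was set apart in C57BL/6N replicate 3 (0.975), on 6 reads against 0 in the other 3 corneas. Crybb3 was set apart in C57BL/6N replicate 3 as well (0.852, 112 reads in the smallest library). In BALB/c no gap passed the limit, and the largest was that of Crybb3 in replicate 1 (0.784).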

How the results depend on the processing

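No crystallin was called in any of the alternatives run, and the lowest adjusted p of a crystallin from limma in each alternative lay between 0.106 and 0.405. The number of all genes called moved from 1458 to 958 with each cornea centred on its median (which moved their median difference from 0.01 to -0.07), to 2842 at an adjusted p of 0.05, and to 457 without BALB/c replicates 1 and 4, where fewer samples were fitted. Fits without 1 cornea called 951 to 1162 genes. The replicate block called 554 genes and changed no call among the crystallins. The labels give no pairing of the corneas. Deviations of same-numbered corneas correlated at 0.305, -0.53, -0.203 and -0.454, and only BALB/c replicate 1 correlated best with its own number. These correlations cannot show whether a pairing exists, as single corneas differed widely in stromal, lens, pigment and smooth muscle transcripts. For median centring, the cause was not tested.

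Of 180 single values under alternatives, 166 kept direction and side of the threshold, and 14 changed sign, none of them called. Leaving out 1 cornea at a time gave 0.98 to 2.83 for Cryaa, 0.60 to 1.75 for Cryba1, 0.43 to 1.11 for Cryba2, 0.45 to 1.07 for Cryba4, 0.40 to 1.17 for Crybb1, 0.58 to 2.35 for Crybb2, 0.02 to 0.32 for Crybb3 and 0.54 to 1.72 for Crygs. Without BALB/c replicates 1 and 4 the differences were -0.39 for Cryaa, -0.23 for Cryab, -0.37 for Cryba1, -0.09 for Cryba2, -0.17 for Crybb1, -0.21 for Crybb2, -0.03 for Crybb3 and -0.24 for Crygs. Cryab was -0.04 after median centring and -0.07 to 0.17 in the fits without 1 cornea, and Crygn -0.05 to 0.02 in the same fits.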
